A study of Mus musculus with 20 samples.

Results

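The samples described here are 6 of the 20 libraries of the series, 3 from full transection of the spinal cord at 72 h post-lesion (FT 72 h) and 3 from non-injured mice (NI), and every one of the 16810 genes of the deposited table was compared between them. All mice were adult CX3CR1+/eGFP heterozygous males (12 weeks of age, C57BL/6 background), in which eGFP stands under the *Cx3cr1* promoter and marks resident microglia but also blood monocytes. A segment of thoracic cord centred on the lesion, or the same segment of NI cord, was dissociated, eGFP-high cells were sorted by flow cytometry as microglia, and their poly-A RNA was amplified and sequenced. FT cuts the whole width of the cord at thoracic level. NI mice carried the same reporter allele and had no lesion. The paper calls its replicates biological, but the sources used here do not say which mice went into which library. The p-values thus measure the spread between these libraries, which may be partly technical. FT at 1 week, with 3 libraries, and lateral hemisection (HS) at 72 h, with 3 libraries, were used where stated, from mice of the same genotype.

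Microglia are the resident macrophages of the central nervous system. In the intact cord they hold a surveying state marked by purinergic receptors such as *P2ry12* and by *Tmem119*, and a lesion draws them into division, debris uptake and the release of signalling proteins. Blood monocytes enter a transected cord during the same days and become macrophages that share many genes with microglia. A dividing cell makes its DNA replication proteins under E2F factors around the entry into S phase and its mitotic proteins later, through promoters that carry CCAAT boxes and the element called CHR (cell cycle genes homology region).

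The FT 72 h libraries held between 3872918 and 12460162 reads on genes and the NI libraries between 6040762 and 13937586. Values are given in CPM, which here are reads divided by a library size that an edgeR factor had adjusted, and 1 read was worth 0.292 CPM in FT 72 h replicate 2, the shallowest library. Such a step covers counting error only. Because of that factor the columns do not sum to one total. The NI columns summed to between 777426 and 830481 CPM and the FT 72 h columns to between 1066745 and 1131226 CPM. The microglial markers were at high levels throughout, with *P2ry12* at 5085, 3845 and 3739 CPM in NI replicates 1 to 3 and at 1631, 2882 and 2371 CPM in FT 72 h replicates 1 to 3, and the same order of replicates is kept below wherever 3 values are listed. Both groups overlapped for *Csf1r*, the receptor that microglia need to survive, at 7005, 6049.8 and 5796 CPM in NI and 5681, 6039 and 7026 CPM in FT 72 h.

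Some libraries stood apart from the others of their group. *Fth1*, the heavy chain of ferritin, was at 412.9 CPM in NI replicate 3 and 694.6 CPM in FT 72 h replicate 2, against 3472 to 7932 CPM in the other 4 libraries. Over the whole series *Fth1* lay under 1500 CPM in 8 libraries, with at least 1 of them in each of the 7 groups, and at 3472 CPM or more in the other 12. *Apoe*, *Rpl13* and *Lag3* were lower in the same NI and FT 72 h libraries, and *Rpl13*, a ribosomal protein gene, was at 737, 671 and 93.6 CPM in NI and 1651, 189.6 and 1490.2 CPM in FT 72 h. Cytosolic ribosomal protein genes as a list did not follow *Rpl13*. Their summed level was 36366.2, 29632.9 and 35709.5 CPM in NI replicates 1 to 3 and 68100.3, 98287.8 and 69916.2 CPM in FT 72 h replicates 1 to 3. FT 72 h replicate 1 stood apart in another way, with higher monocyte-type genes than replicates 2 and 3, as given below. The part of either difference in the results was not tested.

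**Figure D1:**
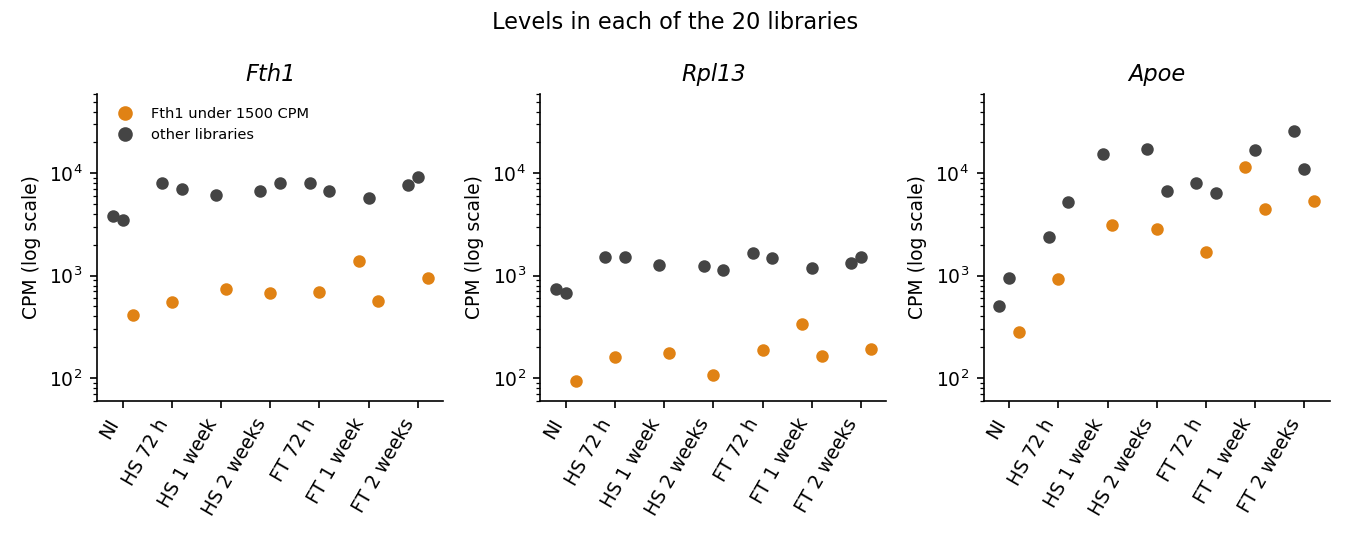
Levels of *Fth1*, *Rpl13* and *Apoe* (CPM, log scale) in each of the 20 libraries by group, with a point per library and the libraries with *Fth1* under 1500 CPM in orange. NI replicate 3 and FT 72 h replicate 2 are the orange points of their groups, with *Fth1* at 412.9 and 694.6 CPM.

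The first question was which genes differ between FT 72 h and NI microglia. Differentially expressed (DE) genes were those with an adjusted p-value under 0.05 (limma, corrected over all 16810 genes by the Benjamini-Hochberg method) that also changed 2-fold or more on the log2(CPM + 0.5) scale, which understates the change of low genes. There were 1369 DE genes higher at FT 72 h (8.14% of all genes) and 688 lower (4.09%), or 1206 and 376 without both libraries with low *Fth1*. The direction of this balance depended on the scale of the columns. When every column was scaled to the same total, 620 genes were higher and 2732 lower, so that the share of higher genes went from 66.6% to 18.5%, and the median change over all genes moved from -0.09 to -0.48 on the log2 scale. After quantile normalization 1039 were higher and 748 lower. Changes below are on the deposited scale. The count of each list on that scale is to be read beside the 8.14% higher and 4.09% lower of all genes. A list's count on another scale is to be read beside the count over all 16810 genes on that scale, given above. In sorted bulk RNA, fewer cells of a type and less RNA per cell cannot be told apart.

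**Figure D2:**
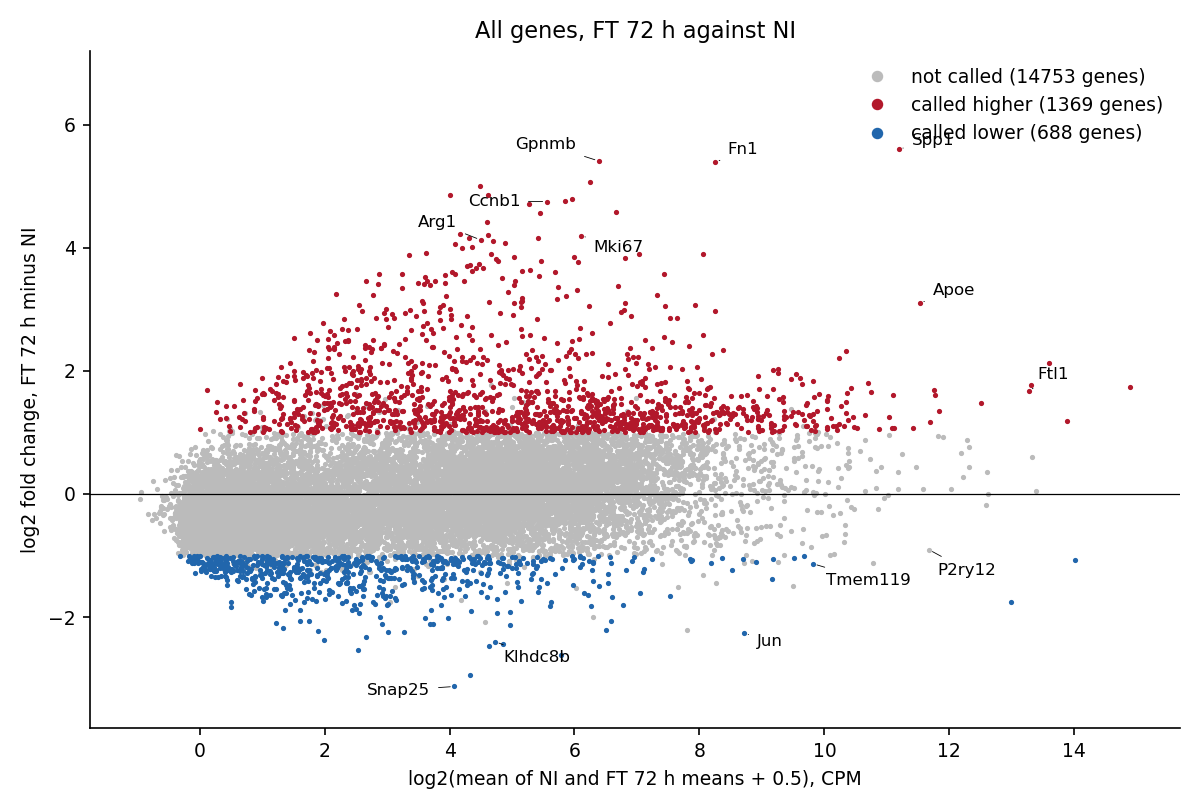
Log2 fold change from NI to FT 72 h (vertical axis) against log2 of the mean level in CPM plus 0.5 (horizontal axis), with a point per gene and DE genes in colour. The 1369 higher DE genes in red reach 5.60 (*Spp1*) and the 688 lower ones in blue reach -3.13 (*Snap25*).

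The largest rises among genes of at least 5 CPM whose groups did not overlap were those of *Spp1*, *Gpnmb*, *Fn1*, *Apoc2*, *Saa3*, *Cd5l*, *Serpina3n*, *Rrm2*, *Ccnb1*, *Ccnb2*, *Top2a* and *Pbk*, from 5.60 for *Spp1* to 4.57 for *Pbk* on the log2 scale. They encode secreted or matrix proteins of activated myeloid cells (osteopontin for *Spp1*, fibronectin for *Fn1*), apolipoprotein C2, an acute-phase protein (*Saa3*), the macrophage protein *Cd5l*, a protease inhibitor (*Serpina3n*) and 5 proteins of dividing cells. The 12 largest falls, picked under the same conditions, were smaller, from -3.13 for *Snap25* to -2.23 for *Vsnl1*. They comprised the neuronal genes *Snap25*, *Stx1a* and *Vsnl1*, the macrophage lectin *Mgl2*, the heat-shock gene *Hspa1b*, the transcription factor gene *Jun*, *Cldn10*, *Gprasp2*, *Tmem204*, *Whrn*, *Klhdc8b* and *BC018473*. *Tmem204* was at 43, 42.1 and 38.9 CPM in NI and at 6.49, 5.55 and 9.79 CPM in FT 72 h, and *Klhdc8b* went from 39.3, 47.4 and 45.6 CPM to 7.24, 7.01 and 9.79 CPM. Lack of overlap was a condition of this pick and is not a separate result for these genes. *Whrn*, picked in the same way, was at 38.5, 52 and 55 CPM in NI and 10.2, 6.13 and 9.53 CPM in FT 72 h (log2 fold change -2.44, limma adjusted p = 2.05e-07).

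Genes of DNA replication and mitosis rose together. Of 41 measured mitosis genes 39 were higher and none lower, with a median log2 fold change of 3.43, and of 40 DNA replication genes 33 were higher and none lower, with a median of 1.95. Over all genes 8.14% were higher and the median was -0.09. The FT 72 h libraries lay above the NI libraries for all 41 mitosis genes and for 36 replication genes, against 22.2% of all genes. With the columns scaled to the same total 37 mitosis and 25 replication genes were DE and higher, and without FT 72 h replicate 1 the counts were 38 and 31. The summed level of the mitosis list was 204.8 to 223.7 CPM in NI against 1778 to 2146 CPM in FT 72 h.

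The promoters of these lists are shown because their genes rose together. RefSeq windows of 300 bases, from 250 before to 50 after a gene's start (GRCm38.p6), were found for 33 of the 40 replication genes, 32 of the 41 mitosis genes and 13170 of the 16810 genes of the table. They were searched on both strands for the E2F-type letters TTTCGCGC, TTTGGCGC and GGCGGGAA, the CHR-type letters TTTGAA and TTCGAA, and CCAAT, and overlapping matches were each counted. E2F-type letters were in 42.4% of the replication windows, 3.12% of the mitosis windows and 5.004% of all windows. CHR-type letters were in 75% of the mitosis windows, 24.2% of the replication windows and 14.9% of all windows. CCAAT was in 71.9%, 60.6% and 38.3% of the mitosis, replication and all windows. Among the 1040 other DE genes that were higher and had a window, 6.83% held E2F-type, 18.8% CHR-type and 40.1% CCAAT letters. Such a match is a description of the letters and not a mapped binding site. The 250 bases before the start are given for a replication gene (*Mcm5*, plus strand, chr8:75109259-75109508), for *Cdk1* (minus strand, chr10:69352913-69353162), which holds all 3 kinds of letters, and for the mitosis genes *Top2a* (minus strand, chr11:99024190-99024439) and *Cdc20* (minus strand, chr4:118437344-118437593). Each is written 5′ to 3′ on the gene's strand with the matched letters of either strand in capitals, and the start is the one that the RefSeq table uses, which for *Mcm5* and *Top2a* lies inside the outermost annotated span.
Mcm5: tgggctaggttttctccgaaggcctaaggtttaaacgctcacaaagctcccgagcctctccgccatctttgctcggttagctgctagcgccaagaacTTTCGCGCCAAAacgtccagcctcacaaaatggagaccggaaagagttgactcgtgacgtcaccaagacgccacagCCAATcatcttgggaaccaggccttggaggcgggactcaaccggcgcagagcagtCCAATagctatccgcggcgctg
Cdk1: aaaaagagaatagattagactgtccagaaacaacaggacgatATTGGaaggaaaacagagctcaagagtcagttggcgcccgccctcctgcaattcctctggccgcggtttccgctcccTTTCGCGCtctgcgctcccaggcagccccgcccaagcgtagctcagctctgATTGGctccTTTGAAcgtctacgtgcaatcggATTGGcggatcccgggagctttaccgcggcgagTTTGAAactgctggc
Top2a: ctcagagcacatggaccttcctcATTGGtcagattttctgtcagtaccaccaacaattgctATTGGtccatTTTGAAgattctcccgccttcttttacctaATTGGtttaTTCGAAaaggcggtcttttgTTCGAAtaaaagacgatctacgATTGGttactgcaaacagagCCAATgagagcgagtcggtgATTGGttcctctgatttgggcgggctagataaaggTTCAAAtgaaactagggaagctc
Cdc20: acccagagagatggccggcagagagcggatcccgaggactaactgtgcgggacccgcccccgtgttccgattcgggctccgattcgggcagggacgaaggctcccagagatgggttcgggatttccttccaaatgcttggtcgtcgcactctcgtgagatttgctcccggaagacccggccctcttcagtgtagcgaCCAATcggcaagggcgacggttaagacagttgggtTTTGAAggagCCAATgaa
The *Mcm5* stretch held 2 overlapping E2F-type matches and 2 CCAAT boxes and the *Cdk1* stretch held 1 E2F-type match, 2 CHR-type matches and 3 CCAAT boxes. No E2F-type letters were in the *Top2a* stretch, which held 4 CHR-type matches and 6 CCAAT boxes, or in the *Cdc20* stretch, which held 1 and 2.

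Among the replication genes, *Mcm5*, a subunit of the helicase that opens origins, was at 9.3, 11.6 and 9.5 CPM in NI and at 105, 83.8 and 95.4 CPM in FT 72 h. The lowest FT 72 h library was thus well above the highest NI library (log2 fold change 3.16 with a standard error of 0.27, limma adjusted p = 2.14e-08). *Rrm2*, the regulated subunit of ribonucleotide reductase, which makes deoxynucleotides, went from 5.54, 3.09 and 3.17 CPM to 139.8, 101 and 117 CPM, the largest rise of the list (4.79). *Tk1*, the thymidine kinase of dividing cells, went from 4.53, 5.02 and 6.14 CPM to 92, 65.7 and 58.5 CPM, again without overlap. *Cdc6*, which loads the helicase, rose by 2.67 and *Mcm2* by 2.22 on the log2 scale. *Pcna*, the sliding clamp of the polymerases, was already at 71.2, 69.2 and 84 CPM in NI and reached 183, 208 and 133 CPM, a smaller rise (1.20, limma adjusted p = 0.000662) that was no longer DE with the columns scaled to the same total or after quantile normalization.

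Among the mitotic genes, *Mki67*, a marker of cycling cells (chromosome 7 of GRCm38, 135689784 to 135716450), was at 5.96, 7.72 and 6.23 CPM in NI and at 141, 126 and 123 CPM in FT 72 h (log2 fold change 4.20 with a standard error of 0.19, limma adjusted p = 4.31e-12). The FT 72 h libraries were close to each other and all far above NI. *Top2a*, the topoisomerase that untangles chromosomes, went from 9.12, 7.08 and 6.81 CPM to 206, 207 and 172 CPM. *Cdk1*, the kinase that drives entry into mitosis, went from 5.06, 6.18 and 5.18 CPM to 84.1, 89.96 and 71.5 CPM, and its partner *Ccnb1* (cyclin B1) from 3.87, 2.45 and 2.4 CPM to 92.6, 103 and 74.8 CPM. None of these overlapped between groups. The mitotic kinases *Plk1* (4.23), *Aurka* (3.99) and *Aurkb* (3.68) rose, as did *Birc5* (3.36), which encodes survivin, a partner of *Aurkb*, and *Ccna2* (3.06), cyclin A2. *Cdc20*, an activator of the anaphase-promoting complex, went from 1.49, 1.29 and 1.53 CPM to 18.7, 11.1 and 13.8 CPM. *Foxm1*, a transcription factor of mitotic genes, rose by 1.99.

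Control of the G1 phase was less uniform, with 9 of 24 measured cyclin, CDK, E2F and inhibitor genes higher and 1 lower (median log2 fold change 0.49). Over all genes 8.14% were higher and 4.09% lower. *E2f1*, an activator of S-phase genes, went from 4.59, 3.99 and 5.18 CPM to 23, 24.2 and 26.7 CPM and *E2f8*, an E2F that represses, from 1.31, 1.93 and 1.34 CPM to 15.1, 8.18 and 10.3 CPM. *Ccne1* (cyclin E1) rose by 2.05. *Ccnd1* (cyclin D1) overlapped between groups, at 51.1, 51.9 and 58.1 CPM in NI and 43.6, 38.3 and 51.7 CPM in FT 72 h (-0.28, limma adjusted p = 0.384). The lower gene was the CDK inhibitor *Cdkn1c*, at 7.81, 6.69 and 7.77 CPM in NI and 2.0, 2.63 and 1.87 CPM in FT 72 h (-1.58, limma adjusted p = 0.00101). The inhibitors *Cdkn1a* (1.06, limma adjusted p = 0.101) and *Cdkn1b* (-0.39, limma adjusted p = 0.0973) did not pass.

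Of 25 genes of DNA damage and homologous recombination 12 were higher and none lower (median log2 fold change 0.93), against 8.14% and 4.09% of all genes. *Brca1*, which acts early in homologous recombination, was at 2.26, 3.09 and 2.4 CPM in NI and 14.2, 12.3 and 11.7 CPM in FT 72 h, above NI in all 3 libraries (2.10, limma adjusted p = 5.49e-06). *Chek1*, the kinase of the replication checkpoint, rose by 2.03. *Brca2*, which acts in the same repair, overlapped between groups at 6.38, 7.72 and 8.25 and 7.11, 8.76 and 6.41 CPM (-0.01), and so did *Atm*, the kinase activated by double-strand breaks (-0.20).

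**Figure D3:**
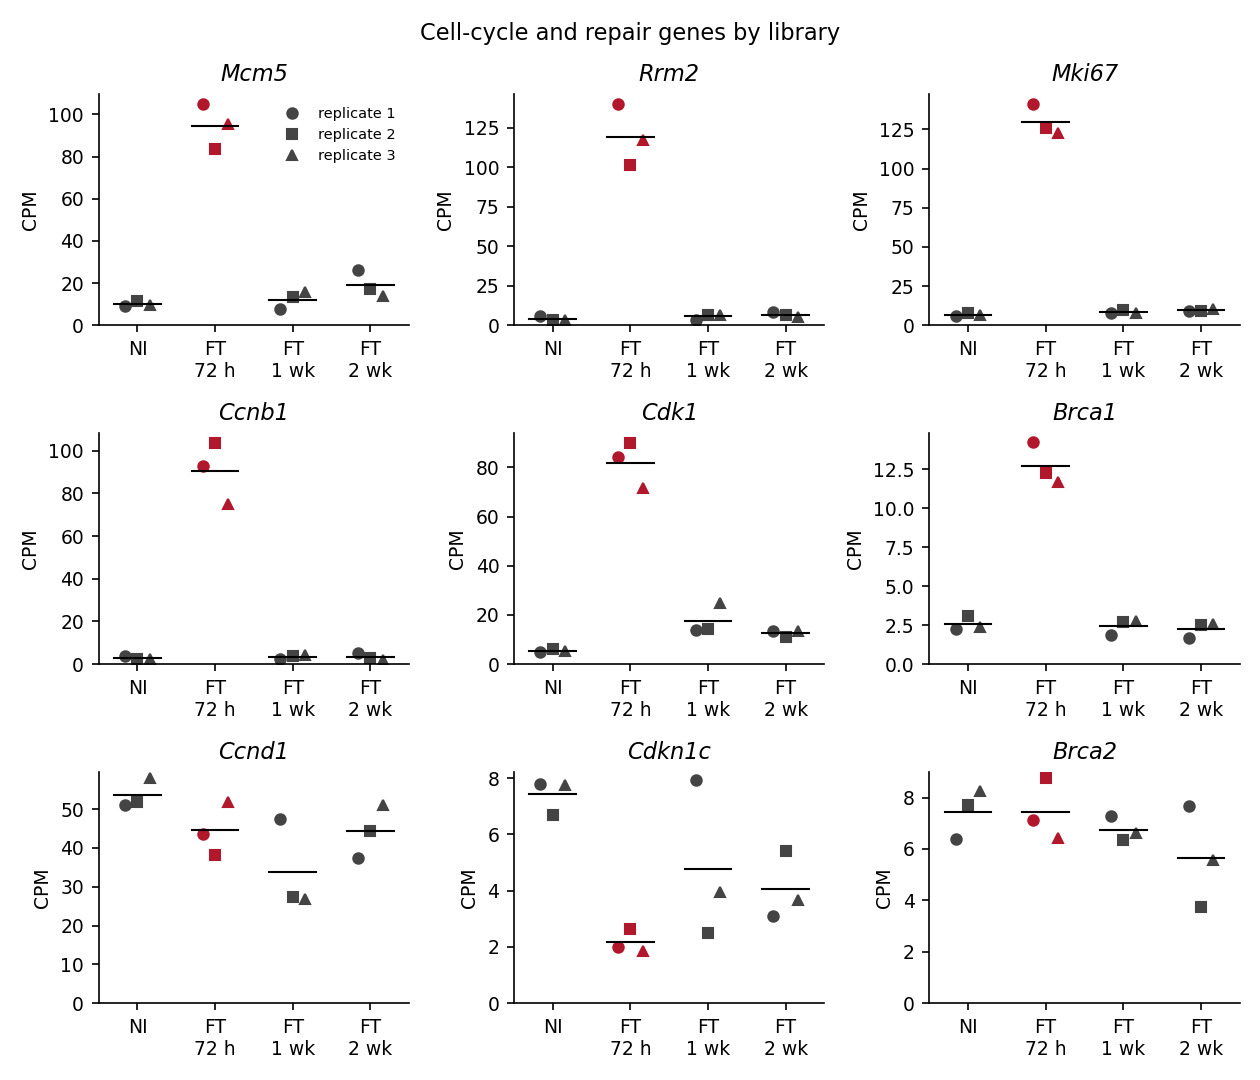
Levels (CPM, linear axes from 0) of 9 genes in NI and in FT at 72 h, 1 week and 2 weeks, with a point per library and a line at the mean of each group of 3. *Mcm5*, *Rrm2*, *Mki67*, *Ccnb1*, *Cdk1* and *Brca1* are high in all 3 FT 72 h libraries (red), *Cdkn1c* is low, and *Ccnd1* and *Brca2* overlap NI.

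The second group of genes concerned the state of the microglia themselves. Of 28 homeostatic microglia genes 3 were lower and 1 higher (median log2 fold change -0.29), against 4.09% and 8.14% of all genes, and all FT 72 h libraries lay below all NI libraries for 10 of the 28, against 22.7% of all genes. *Tmem119* was at 1196, 1263 and 1257 CPM in NI and 619, 515 and 562 CPM in FT 72 h, lower in every FT 72 h library than in any NI library (log2 fold change -1.13 with a standard error of 0.22, limma adjusted p = 0.000587). *Sall1*, a transcription factor of microglial identity, was at 369, 383 and 375 CPM in NI and 208, 238 and 241 CPM in FT 72 h, which passed the p threshold (limma adjusted p = 0.00169) but not the 2-fold limit (-0.72). The other lower DE members were *Tgfbr1*, a TGF-beta receptor, and *Cst3*, which encodes cystatin C. *Selplg*, a ligand of selectins, also passed the p threshold only (-0.97, limma adjusted p = 0.00193). *P2ry12*, whose values are given above, did not pass on the deposited scale (-0.90, limma adjusted p = 0.0599), nor did *P2ry13* (-0.69). *Cx3cr1*, the fractalkine receptor and the reporter locus, was at 2017, 1997 and 2040.2 CPM in NI and 1499, 1745 and 1859 CPM in FT 72 h (-0.25, limma adjusted p = 0.611). The higher member was *Fcrls*, an Fc receptor-like gene of microglia, which went from 1912, 1612 and 1615 CPM to 4535, 5465 and 5745 CPM (1.61) and was not DE after quantile normalization. Calls in this list turned on the scale, since 10 members were lower with the columns scaled to the same total, *P2ry12* among them, and 12 after quantile normalization. Of all 16810 genes 2732 and 748 were lower on these scales.

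Lineage transcription factors gave 2 higher and none lower of 19, against 8.14% and 4.09% of all genes. *Bhlhe40*, a repressor induced in activated myeloid cells, went from 12, 9.78 and 6.52 CPM to 95, 43.2 and 44 CPM (2.56), and the other higher gene was *Tfec*. *Irf8*, which microglia need for their development, overlapped (-0.08) and *Maf* passed the p threshold only (-0.65, limma adjusted p = 0.00892). The median of this list was -0.46. With the columns scaled to the same total 7 members were lower, against 2732 of all 16810 genes.

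Genes of disease-associated microglia, a state of microglia around damage and plaques with high lipid and lysosomal genes, were higher in 24 of 27 and lower in none (median log2 fold change 1.79). The shares of all genes were 8.14% and 4.09%. *Spp1* was at 79.4, 94.8 and 108 CPM in NI and 5188, 4714 and 3854 CPM in FT 72 h, with the lowest FT 72 h library far above the highest NI library. *Gpnmb*, a transmembrane glycoprotein of phagocytes, went from 2.8, 2.57 and 3.36 CPM to 289, 104 and 98.8 CPM, with replicate 1 the highest. *Igf1*, a growth factor, went from 8.34, 5.79 and 8.73 CPM to 86.1, 160.1 and 109 CPM, with replicate 1 the lowest of the 3. *Cst7*, an inhibitor of cathepsins, went from 20.3, 24.8 and 34 CPM to 269.6, 407 and 276 CPM and *Lpl*, lipoprotein lipase, from 64.1, 72.5 and 67 CPM to 531, 556 and 524 CPM. For all of these the groups were far apart whichever FT 72 h library was taken. The lectins *Lgals3* (3.78) and *Clec7a* (2.58), the fatty-acid binding protein *Fabp5* (2.69) and the phosphatidylserine receptor *Axl* (1.51) also rose. *Itgax*, the integrin CD11c that is often used to mark this state, did not pass, at 13.9, 16.1 and 15.8 CPM in NI and 35.3, 21.9 and 18 CPM in FT 72 h (0.64, limma adjusted p = 0.0973). *Apoe*, the main lipid carrier of the nervous system, was at 508, 939 and 283 CPM in NI and 7974, 1689 and 6338 CPM in FT 72 h, and its lowest value in each group fell in the library with low *Fth1*. Its log2 fold change was 3.10 (limma adjusted p = 0.00579), and 3.36 without both of these libraries. *Tyrobp*, the signalling adaptor of Trem2, passed narrowly (1.07, limma adjusted p = 0.00396) and was lost without NI replicate 1 or FT 72 h replicate 2 and under both other scalings.

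**Figure D4:**
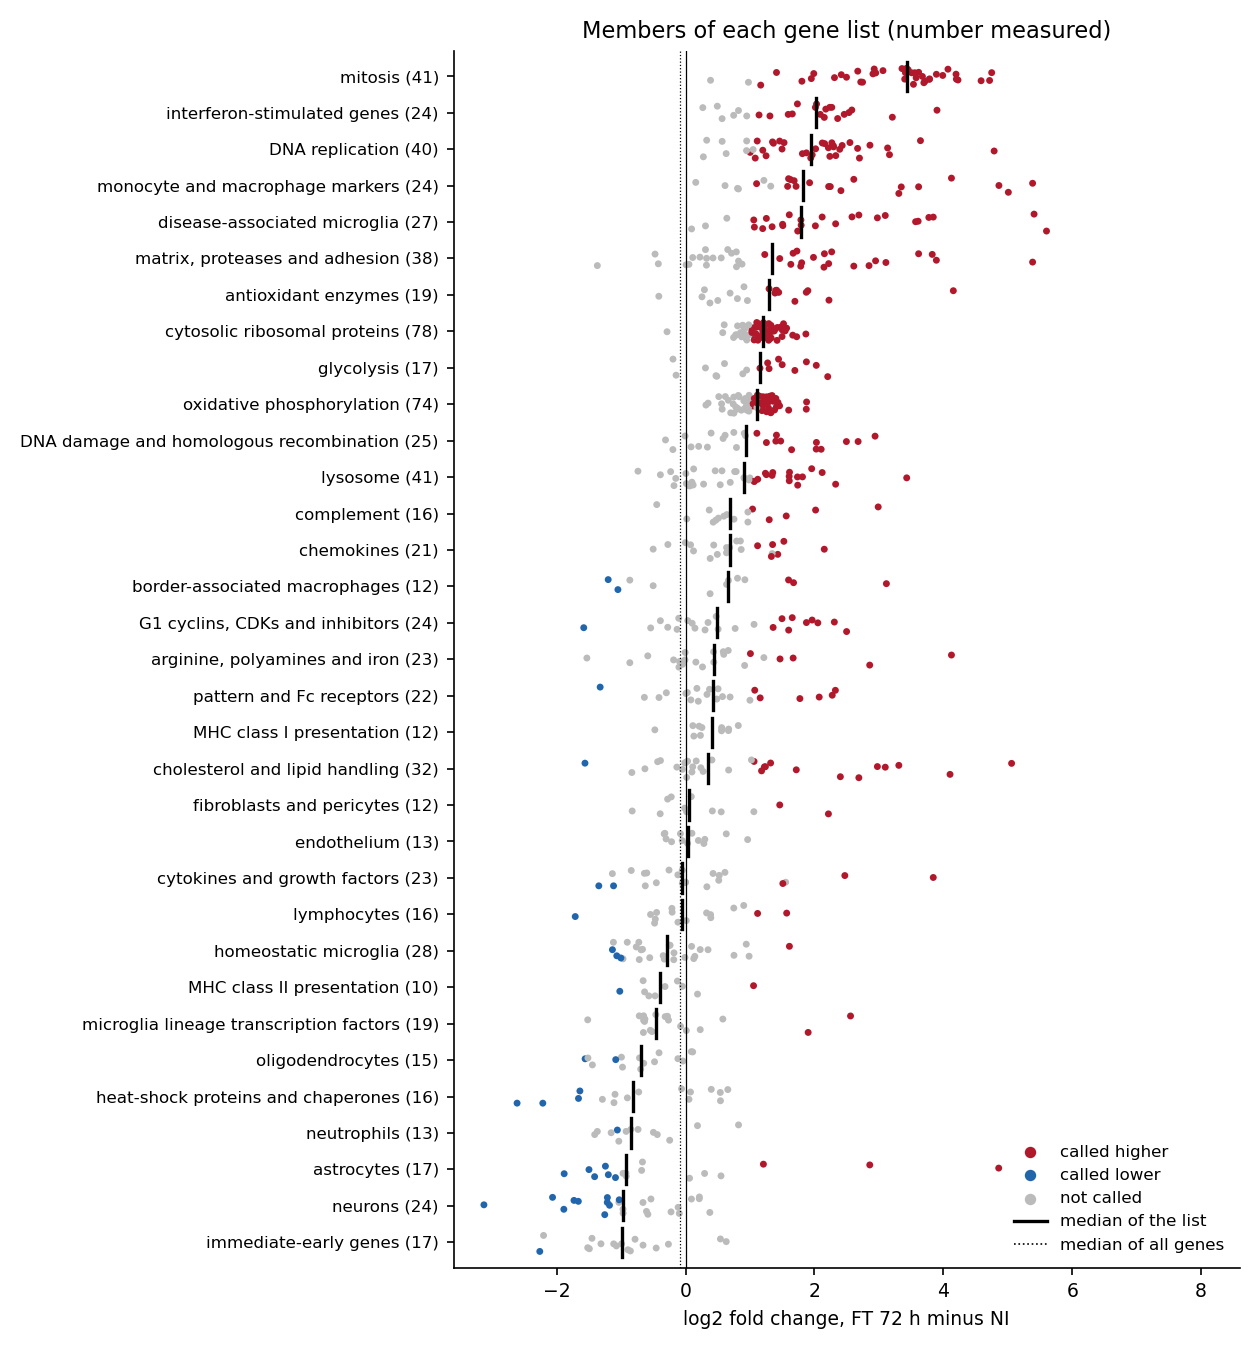
Log2 fold change from NI to FT 72 h of the members of 33 gene lists with 5 or more measured genes, ordered by the list's median (black bar), with DE genes in red (higher) or blue (lower) and the median of all genes dotted. Mitosis stands highest (median 3.43) and immediate-early genes lowest (median -0.99).

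Markers of monocytes and their macrophages rose as well. Of 24 measured genes 18 were higher and none lower (median log2 fold change 1.82), against 8.14% and 4.09% of all genes. The summed level of the list was 529.4 to 741.3 CPM in NI and 3290, 1947 and 2012 CPM in FT 72 h replicates 1 to 3. Replicate 1 was the highest for most of these genes. *Saa3* was at 0.298, 0.386 and 0.288 CPM in NI, that is at most 5 reads in a library, and at 105, 14 and 11.7 CPM in FT 72 h. *Arg1*, which encodes arginase 1, was at 87.1, 24.2 and 17 CPM in FT 72 h against 1.37, 1.29 and 1.63 CPM in NI, and *Chi3l3*, a chitinase-like protein of alternatively activated macrophages with close paralogs, at 38.1, 6.72 and 6.41 CPM against 1.01, 1.03 and 0.288 CPM. *Ecm1*, a secreted matrix protein, showed the same order of libraries, with 137, 30.4 and 33.2 CPM in FT 72 h and 2.8, 5.02 and 3.74 CPM in NI. Without replicate 1 these 4 genes were still DE, with log2 fold changes of 4.01 (*Saa3*), 3.44 (*Arg1*), 2.53 (*Chi3l3*) and 2.92 (*Ecm1*), and 17 of the 24 markers were higher. *Fn1* was at 13.5, 13.9 and 11.4 CPM in NI and 914, 407 and 469.9 CPM in FT 72 h, so that the groups stood apart in every library. *Cd5l*, a scavenger-receptor protein of macrophages, was instead lowest in replicate 1, at 18.1, 33 and 41.1 CPM against 1.07, 0.257 and 0.384 CPM in NI. The scavenger receptor *Msr1* rose by 3.31. *Emr1*, which encodes the macrophage marker F4/80, was already at 539.6, 385 and 331 CPM in NI and reached 780.3, 915 and 956 CPM (1.10, limma adjusted p = 0.0145), and was not DE under either other scaling or without NI replicate 2, NI replicate 3 or both libraries with low *Fth1*.

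Among the markers that separate blood monocytes from microglia, *Ccr2*, their chemokine receptor, went from 14.6, 20.1 and 19.3 CPM to 166, 68.1 and 57 CPM. *Ly6c2*, the marker of inflammatory monocytes, was at 0.834, 0.772 and 1.63 CPM in NI and 3.87, 6.13 and 3.92 CPM in FT 72 h (1.72, limma adjusted p = 0.0131) and was not DE without NI replicate 2, without FT 72 h replicate 2 or without both libraries with low *Fth1*. *Plac8*, another gene of blood monocytes, passed (1.63, limma adjusted p = 0.0204) but not without NI replicate 1 or FT 72 h replicate 1, nor with the columns scaled to the same total. *F13a1*, a coagulation factor of monocytes, was at 176, 36.2 and 38.6 CPM in FT 72 h and 45.6, 33.7 and 29.4 CPM in NI, where only replicate 1 was above every NI library (0.81, limma adjusted p = 0.159). *Vcan*, which encodes versican, overlapped (0.16). Border-associated macrophages, which live in the meninges and around vessels, gave 3 higher (*Folr2*, *Ms4a7* and *Siglec1*) and 2 lower of 12. Over all genes 8.14% were higher and 4.09% lower. *Folr2*, a folate receptor, went from 3.87, 8.62 and 6.91 CPM to 28.7, 83.8 and 77.8 CPM with replicate 1 the lowest, whereas *Mrc1*, the mannose receptor, went from 69.5, 57.1 and 53.7 CPM to 33.9, 28.9 and 23.9 CPM and *Lyve1* from 12.1, 13.5 and 12 CPM to 7.61, 5.55 and 3.21 CPM. *Mrc1* was not DE without NI replicate 1 or FT 72 h replicate 3, nor *Lyve1* without the latter. *Cd163*, a haemoglobin scavenger receptor of these macrophages, overlapped, at 17, 16.2 and 13.4 CPM in NI and 20.8, 3.8 and 6.86 CPM in FT 72 h. *Mgl2*, a lectin of macrophages and dendritic cells, fell from 42.8, 35.5 and 26.2 CPM to 5.37, 2.63 and 4.45 CPM (-2.95). *Mgl2* was among the largest falls given above, for which lack of overlap was a condition.

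**Figure D5:**
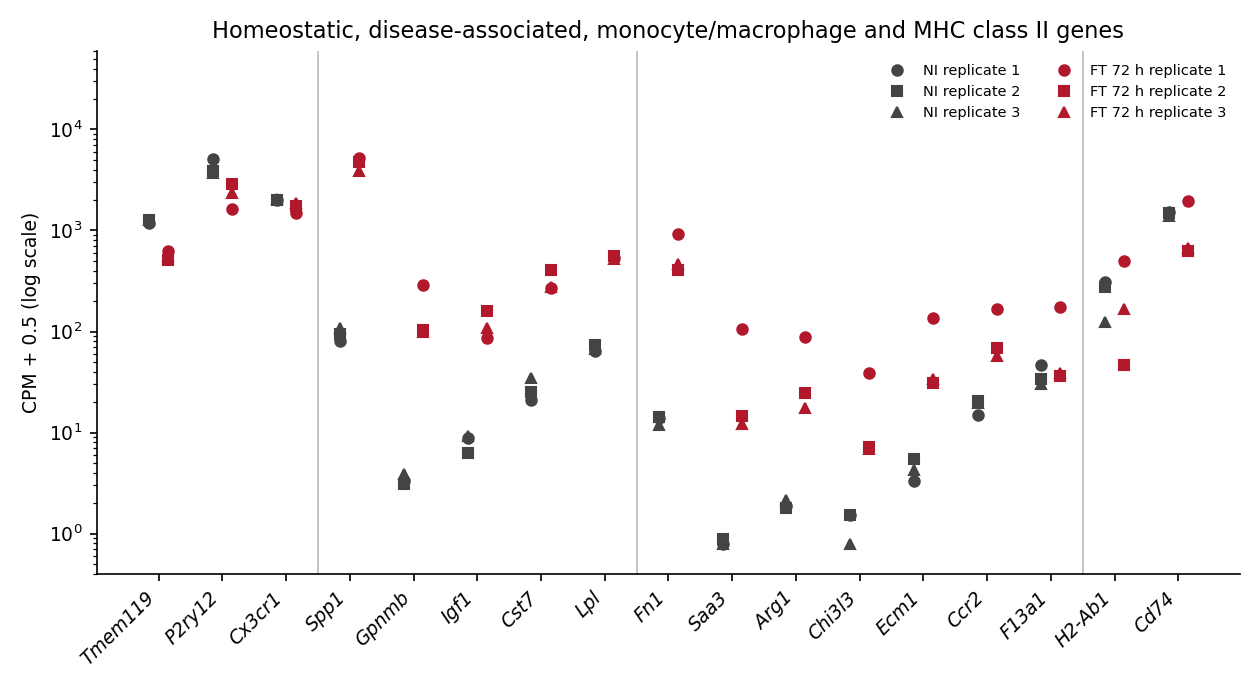
Levels (CPM plus 0.5, log scale) of homeostatic, disease-associated, monocyte or macrophage and MHC class II genes in the 3 NI (grey) and 3 FT 72 h (red) libraries. FT 72 h replicate 1 (red circles) lies above replicates 2 and 3 for *Saa3*, *Arg1*, *Chi3l3*, *Ecm1*, *Ccr2*, *F13a1*, *H2-Ab1* and *Cd74*.

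Of 10 genes of MHC class II presentation 1 was higher, the costimulatory receptor *Cd40* (1.06, limma adjusted p = 0.0243, not DE with the columns scaled to the same total), and 1 lower, the costimulatory ligand *Cd80* (-1.02, limma adjusted p = 0.0114), against 8.14% and 4.09% of all genes. *Cd40* was lost without NI replicate 2, NI replicate 3 or FT 72 h replicate 1, and *Cd80* without NI replicate 1 or FT 72 h replicate 2, and both without both libraries with low *Fth1*. *Cd74*, the invariant chain, was at 1535, 1505 and 1393 CPM in NI and 1959, 619.8 and 674 CPM in FT 72 h. *H2-Ab1* was at 306, 272 and 122 CPM in NI and 493, 46.4 and 166 CPM in FT 72 h. For both genes replicate 1 was above every NI library while replicate 2 was below them all. Without replicate 1, 3 of the 10 genes were lower and none higher, as against 4 and none with the columns scaled to the same total, and 3 and 1 after quantile normalization. Of all 16810 genes 2732 were lower with the columns scaled to the same total and 748 after quantile normalization. None of 12 MHC class I genes was DE, and *B2m*, their common light chain, was at 3786, 9160.4 and 4684 CPM in FT 72 h, where replicate 2 was the highest, and 3662, 2845 and 3899 CPM in NI.

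Of 13 measured neutrophil genes none was higher and 1 was lower (7.69%), against 8.14% and 4.09% of all genes. *S100a8* was at 35.3, 13.1 and 8.44 CPM in NI and 19.5, 4.67 and 5.7 CPM in FT 72 h, with *S100a9* at 19, 7.34 and 4.99 and 7.61, 3.21 and 4.27 CPM. The lower gene was the chemokine receptor *Cxcr2* (-1.06, limma adjusted p = 0.0101), which was not DE without NI replicate 3 or without both libraries with low *Fth1*. The summed level of the neutrophil list was 789.4 to 842.7 CPM in NI against 525.8 to 635.7 CPM in FT 72 h. Lymphocyte genes gave 2 higher and 1 lower of 16 (12.5% and 6.25%), against 8.14% and 4.09% of all genes. The T cell receptor chain *Cd3e* was at or under 1.62 CPM in each of the 6 libraries. The higher *Nkg7*, a granule protein of NK and T cells, was at 0.536, 0.643 and 0.863 CPM in NI and 3.24, 4.09 and 1.96 CPM in FT 72 h, and its call was lost without 5 of the 6 libraries in turn, without both libraries with low *Fth1* and with the columns scaled to the same total. The other higher gene was the chemokine *Ccl5*. The lower gene was *Il7r*, the interleukin 7 receptor, at 40.2, 42.5 and 40.3 CPM in NI and 10.6, 15.5 and 11 CPM in FT 72 h (-1.71, limma adjusted p = 6.61e-06), and its groups were far apart in every library. None of 13 endothelial genes was DE, against the same shares of all genes. Fibroblast and pericyte genes gave 2 higher of 12 (16.67%), against 8.14% of all genes. Of these, *Cspg4*, the NG2 proteoglycan, went from 2.5, 3.35 and 2.78 CPM to 20.7, 11.7 and 14.2 CPM. The other was *Col3a1*, a fibrillar collagen, at 1.91, 3.86 and 2.78 CPM in NI and 7.24, 15.2 and 5.43 CPM in FT 72 h, whose call was lost without 3 of the 6 libraries in turn, without both libraries with low *Fth1* and with the columns scaled to the same total.

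Transcripts of other cells of the cord were present in all 6 libraries and changed in both directions. Summed over 17 astrocyte genes the level was 588.7 to 1054 CPM in NI against 625.5 to 884.7 CPM in FT 72 h. Of these genes 3 were higher and 6 lower, against 8.14% and 4.09% of all genes. Without FT 72 h replicate 1 only 2 were lower. *Gfap*, the intermediate filament of reactive astrocytes (chromosome 11 of GRCm38, 102887336 to 102897200), went from 52.6, 54.6 and 28.3 CPM to 254, 354 and 356 CPM (log2 fold change 2.86, limma adjusted p = 1.73e-06). *Serpina3n*, a secreted inhibitor of serine proteases, went from 2.68, 0.386 and 0.959 CPM to 56, 45.9 and 37.9 CPM (log2 fold change 4.86). Both were above NI in all 3 libraries. *Aldh1l1*, a general marker of astrocytes, rose by 1.21 but was not DE without NI replicate 3 or with the columns scaled to the same total, nor without both libraries with low *Fth1*. *Slc1a2*, the main glutamate transporter of astrocytes, was lower, at 152, 99.9 and 87.4 CPM in NI and 29.2, 59.6 and 39.7 CPM in FT 72 h (-1.41, limma adjusted p = 0.0314), and its call was lost without 4 of the 6 libraries in turn. *Slc1a3*, the other glutamate transporter of astrocytes, passed the p threshold only (-0.68, limma adjusted p = 0.00941). Whether *Gfap* and *Serpina3n* transcripts came from the sorted microglia or from astrocyte material in the sort was not tested.

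Neuronal genes fell in 10 of 24 and rose in none (median log2 fold change -0.97), from a sum of 181.2 to 229.6 CPM in NI to 101.6 to 160.9 CPM in FT 72 h. Without FT 72 h replicate 1 the count of lower genes was 7. With the columns scaled to the same total it was 14, against 2732 of all 16810 genes. *Snap25*, a synaptic vesicle fusion protein, was at 39.4, 28.1 and 21.7 CPM in NI and 3.87, 1.46 and 3.92 CPM in FT 72 h, so that no FT 72 h library came near the NI levels. *Nefl*, a neurofilament, was at 18, 14.9 and 6.23 CPM in NI and 5.12, 1.46 and 4.27 CPM in FT 72 h (-1.73, limma adjusted p = 0.0234), but was not DE without NI replicate 1, NI replicate 2, FT 72 h replicate 2 or both libraries with low *Fth1*. Of 15 oligodendrocyte genes 2 were lower, none without FT 72 h replicate 1 and 6 with the columns scaled to the same total, from a sum of 1327 to 2703 CPM in NI to 1238 to 1669 CPM in FT 72 h. *Olig1*, a transcription factor of the lineage, was at 9.95, 7.08 and 5.28 CPM in NI and 1.75, 2.63 and 2.05 CPM in FT 72 h, and its call was lost without 5 of the 6 libraries in turn. *Mbp*, myelin basic protein, overlapped at 779.9, 868 and 486 CPM in NI and 543, 888 and 824 CPM in FT 72 h (0.09, limma adjusted p = 0.92).

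Interferon-stimulated genes were higher in 18 of 24 and lower in none (median log2 fold change 2.02), against 8.14% and 4.09% of all genes. The FT 72 h libraries lay above NI for 23 of the 24, against 22.2% of all genes. *Ifi27l2a*, a small interferon-induced membrane protein, went from 35.9, 28.4 and 30.2 CPM to 304, 663 and 533 CPM, lowest in replicate 1. *Irf7*, the transcription factor that amplifies the interferon response, went from 20.8, 20.8 and 14.6 CPM to 69.5, 83 and 108 CPM and *Ifit3*, an interferon-induced antiviral protein, from 16.3, 9.52 and 9.4 CPM to 34.2, 56.1 and 55.5 CPM. No NI library reached the FT 72 h levels for these 3 genes. *Ifitm3*, which blocks virus entry and has close paralogs, rose by 2.46 and *Cxcl10*, a chemokine for T cells, by 2.15. The count of the list held without FT 72 h replicate 1 and without both libraries with low *Fth1* (18 each).

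Of 23 cytokine and growth factor genes 3 were higher and 2 lower, with a median log2 fold change of -0.05, against 8.14% and 4.09% of all genes. With the columns scaled to the same total 3 were higher and 6 lower, and after quantile normalization 3 and 4. Of all 16810 genes 2732 and 748 were lower on these scales. The higher genes were *Il1rn*, *Igf1* and *Csf1*, and the lower ones *Il6* and *Pdgfb*. *Il1rn*, the antagonist of the interleukin 1 receptor, went from 7.33, 10.04 and 8.15 CPM to 65.5, 40.6 and 44.4 CPM (2.47, limma adjusted p = 1.05e-05). *Il1b*, the agonist itself, was at 46, 65.2 and 82.1 CPM in NI and 242, 171 and 154 CPM in FT 72 h, without overlap, but did not pass (1.55, standard error 0.71, limma adjusted p = 0.115). *Tnf* was at 64.5, 73.9 and 74.3 CPM and 132, 77.7 and 84.6 CPM (0.43), with the lowest FT 72 h value close to the highest NI value. *Il6* was lower, at 10.2, 9.78 and 12.8 CPM in NI and 3.99, 4.09 and 3.83 CPM in FT 72 h (-1.35, limma adjusted p = 0.0361), and its call was lost when any of the 6 libraries was left out. Of 21 chemokines 6 were higher and none lower, against the same shares of all genes. *Ccl12*, a ligand of *Ccr2*, went from 204, 146 and 190.3 CPM to 367, 686 and 375 CPM (1.35) and was not DE without FT 72 h replicate 2, without both libraries with low *Fth1* or under either other scaling, while its relative *Ccl2* overlapped (-0.27), as did *Ccl3* (0.38). *Cxcl3*, a neutrophil chemokine, passed with overlapping groups and rested on replicate 1, with 3.37, 0.584 and 0.089 CPM in FT 72 h and at most 2 reads in any NI library, so that no fold is given.

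Receptors and complement were mixed. Of 22 pattern and Fc receptors 6 were higher and 1 lower, against 8.14% and 4.09% of all genes. *Fcgr4*, an activating receptor for antibodies, went from 29.6, 17 and 19.3 CPM to 85, 124 and 111 CPM (2.28). *Clec4e*, a lectin for damaged cells and mycobacteria, was at 43.4, 5.26 and 6.32 CPM against 1.97, 2.96 and 2.21 CPM in NI and was not DE without replicate 1. *Tlr2* (1.16) rose on the deposited scale but not under either other scaling, *Tlr4*, the receptor for lipopolysaccharide, did not pass (-0.41, limma adjusted p = 0.42) and *Tlr9*, a receptor for DNA, was lower (-1.32, limma adjusted p = 0.0158) but not without NI replicate 1, NI replicate 2, FT 72 h replicate 2 or both libraries with low *Fth1*. Of 16 complement genes 5 were higher, namely *Cfb*, *C3*, *C3ar1*, *C4b* and *Cfp*, against 8.14% of all genes. Their number was 3 with the columns scaled to the same total and 4 after quantile normalization. The call of *C3ar1* was lost under either other scaling, without NI replicate 3, without FT 72 h replicate 2 and without both libraries with low *Fth1*. *Cfb*, factor B of the alternative pathway, went from 2.44, 1.54 and 1.53 CPM to 15.6, 19 and 19.1 CPM (2.99). *C3*, the central component, was at 6.2, 7.46 and 6.91 CPM in NI and 26.7, 12 and 16.8 CPM in FT 72 h (1.30, limma adjusted p = 0.000105), and was not DE with the columns scaled to the same total. *C1qa*, a subunit of the initiating complex, was at 1249, 929 and 1116 CPM and 1434, 1696 and 1417 CPM, above NI in all 3 libraries without passing (0.47). *C5ar1*, the receptor for the complement fragment C5a, passed the p threshold but not the 2-fold limit (0.97, limma adjusted p = 0.00116).

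Matrix, protease and adhesion genes were higher in 20 of 38 and lower in none (median log2 fold change 1.35), against 8.14% and 4.09% of all genes. *Lgals1*, galectin 1, went from 17.2, 12.6 and 17.4 CPM to 248, 313 and 174 CPM and *Anxa2*, a calcium-dependent membrane binder, from 12.9, 15.7 and 13.3 CPM to 277, 176 and 174 CPM. *Vim*, the intermediate filament vimentin, went from 22.4, 25.2 and 19.1 CPM to 311, 115 and 147 CPM and *Timp1*, an inhibitor of matrix metalloproteases, from 0.655, 0.643 and 0.576 CPM to 11.2, 9.93 and 3.83 CPM. All FT 72 h libraries lay above NI for these 4 genes, with the spread among them widest for *Vim* and *Timp1*. *Tgfbi*, a matrix protein induced by TGF-beta, was at 689.9, 162 and 226 CPM against 97.2, 89.1 and 78.9 CPM, and *Thbs1*, thrombospondin 1, at 272, 62.5 and 74.3 CPM against 22.3, 16.3 and 14.1 CPM, each highest by a wide margin in replicate 1.

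Of 17 glycolysis genes 9 were higher and none lower (median log2 fold change 1.16), against 8.14% and 4.09% of all genes. With the columns scaled to the same total 5 were higher. *Pkm*, pyruvate kinase, went from 449.9, 440.1 and 388 CPM to 2456, 1656 and 1863 CPM (2.21), *Ldha*, lactate dehydrogenase A, from 236, 235 and 227 CPM to 782, 744 and 741 CPM (1.70), and *Pgk1*, phosphoglycerate kinase, rose by 2.03. The FT 72 h libraries were tight for *Ldha*. *Eno1*, an enolase gene whose reads near-identical copies may take, was low, at 2.5, 1.67 and 1.92 CPM in NI and 9.86, 2.34 and 5.43 CPM in FT 72 h, and passed with overlapping groups (1.16, limma adjusted p = 0.0276), a call lost without 4 of the 6 libraries in turn and with the columns scaled to the same total. *Hk2*, a hexokinase that starts the pathway, overlapped (-0.15, limma adjusted p = 0.625). Oxidative phosphorylation genes were higher in 40 of 74 and cytosolic ribosomal protein genes in 59 of 78, with none lower in either list and medians of 1.11 and 1.20, but most of these calls were tied to the scale. With the columns scaled to the same total 2 and 11 were higher, and after quantile normalization 13 and 6. *Cox4i1*, a subunit of cytochrome c oxidase, went from 406, 359 and 404 CPM to 803, 1129.5 and 889 CPM (1.26) and *Atp5a1*, a subunit of ATP synthase, rose by 1.11, both lost under either other scaling. *Ndufa1*, a subunit of complex I, rose by 1.88 and *Rps2*, a ribosomal protein, by 1.87. Ribosomal protein genes have many processed copies, so that their counts depend on how reads shared with these were treated.

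Of 32 genes of cholesterol and lipid handling 13 were higher and 1 lower (median log2 fold change 0.34), against 8.14% and 4.09% of all genes. *Apoc2*, a lipoprotein component that activates *Lpl*, went from 2.5, 4.12 and 5.37 CPM to 192, 136 and 115 CPM (5.06), *Plin2*, a coat protein of lipid droplets, from 70.2, 75.2 and 70.5 CPM to 424, 349 and 378 CPM (2.40), and *Abcg1*, a cholesterol exporter, from 147, 138 and 108 CPM to 428, 431 and 426 CPM (1.72). Groups did not overlap for any of these. Lysosome genes were higher in 17 of 41 and lower in none, against the same shares of all genes. They were led by *Acp5*, a secreted and lysosomal acid phosphatase, which went from 1.19, 1.54 and 0.863 CPM to 36.1, 9.64 and 15.5 CPM. With the columns scaled to the same total 10 lysosome genes were higher and 1 lower, and after quantile normalization 8 were higher. Antioxidant enzymes were higher in 10 of 19 (median log2 fold change 1.30), against 8.14% of all genes. The count was 5 with the columns scaled to the same total and 9 after quantile normalization. *Gpx3*, a glutathione peroxidase, went from 5.06, 4.12 and 3.07 CPM to 84.4, 73.9 and 81.7 CPM (4.16, limma adjusted p = 9.78e-12), nearly alike in the 3 libraries, and *Prdx1*, a peroxiredoxin, rose by 1.87. *Hmox1*, which degrades haem, was at 72.3, 32.7 and 27.1 CPM in NI and 496, 447 and 114 CPM in FT 72 h (2.86, limma adjusted p = 0.00214), with replicate 3 well below the other two, and was not DE without both libraries with low *Fth1*. *Ftl1*, the ferritin light chain, went from 4097, 4901 and 5253 CPM to 14864, 15763 and 14512 CPM (1.67), a call lost after quantile normalization, whereas *Fth1* had a log2 fold change of 0.92 with a standard error of 1.25.

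Immediate-early and heat-shock genes, which dissociation of tissue can induce, were lower or did not pass. Of 17 immediate-early genes 1 was lower and none higher (median log2 fold change -0.99), against 4.09% and 8.14% of all genes, and none was lower without FT 72 h replicate 1. With the columns scaled to the same total 6 were lower and after quantile normalization 5, against 2732 and 748 of all 16810 genes. The summed level was 7733 to 12791 CPM in NI against 5053 to 5860 CPM in FT 72 h. *Jun* was at 492, 814 and 779 CPM in NI and 122, 114 and 201 CPM in FT 72 h (-2.26, standard error 0.68, limma adjusted p = 0.0187) and was lost without NI replicate 2, NI replicate 3, FT 72 h replicate 1 or FT 72 h replicate 2. *Fos* was at 1604, 2879 and 2806 CPM in NI and 909, 1208 and 1161 CPM in FT 72 h, lower in every library, without passing (-1.11, limma adjusted p = 0.287). Of 16 heat-shock genes 4 were lower, against 4.09% of all genes. The count was 8 with the columns scaled to the same total and 6 after quantile normalization, against the same 2732 and 748 of all genes. *Hspa1a* and *Hspa1b*, near-identical copies of the inducible HSP70 gene between which reads cannot be split with certainty, had log2 fold changes of -2.21 and -2.61, of which the former was lost without any 1 library and the latter without NI replicate 3 or FT 72 h replicate 3. The cochaperone *Hsph1* went from 86.3, 117 and 133 CPM to 44.6, 31 and 31.3 CPM, and the other lower member was *Dnajb1*. Without both libraries with low *Fth1* neither *Jun* nor any of these 4 heat-shock genes was DE.

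FT 72 h was then set against FT at 1 week, to ask which genes differ between the times. The NI libraries enter this comparison only through the pooled estimate of spread. At 72 h 440 genes were higher than at 1 week (2.62% of all genes) and 139 lower (0.827%), and 75 were lower without FT 72 h replicate 2. Replication genes were higher at 72 h in 31 of 40 and mitosis genes in 40 of 41. *Mki67* had 8.44 ± 1.21 CPM (SD, n = 3) at 1 week and differed by 3.87 on the log2 scale (limma adjusted p = 3.58e-11), and *Rrm2* had 5.66 ± 1.82 CPM (SD, n = 3) and differed by 4.32 (limma adjusted p = 7.1e-09). At 1 week *Mki67* was 0.32 and *Rrm2* 0.47 above NI on the log2 scale. DNA damage and recombination genes were higher at 72 h in 12 of 25, with *Brca1* differing by 2.18 and *Chek1* by 1.96. Of the matrix genes 10 of 38 were higher at 72 h, among them *Lgals1* (2.08), *Timp1* (2.16) and *Vim* (1.69), and of the monocyte and macrophage markers 7 of 24, among them *Arg1* (3.17), *Ccr2* (2.17) and *Ly6c2* (1.82). Glycolysis genes were higher in 5 of 17 (*Pkm* 1.20, *Ldha* 1.14).

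Among disease-associated genes 1 of 27 was higher at 72 h (*Spp1*, 1.15, limma adjusted p = 0.00707) and 1 lower (*Itgax*, -1.06, limma adjusted p = 0.0254). Over all genes 2.62% were higher and 0.827% lower. *Gpnmb* was at 253 ± 34.2 CPM and *Cst7* at 507 ± 156 CPM at 1 week (SD, n = 3 each), and neither difference from 72 h passed (limma adjusted p = 0.118 and 0.161). *C3* was lower at 72 h, with 103 ± 12.8 CPM at 1 week (SD, n = 3), above all FT 72 h libraries (-2.51, limma adjusted p = 4.01e-08). *Gfap* (1.58) and *Ifi27l2a* (1.34) were higher at 72 h. None of the 28 homeostatic genes passed in this comparison. With so few genes passing over the whole table, this does not show that their levels were alike at both times. FT at 1 week holds 2 libraries with low *Fth1* and FT 72 h holds 1, and with a term for these libraries 466 genes were higher and 184 lower.

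Finally FT 72 h was set against HS at 72 h, which asks whether a full and a partial lesion differ at this time. Limma called 0 of 16810 genes (0%), with 505 at an unadjusted p under 0.05, and the edgeR quasi-likelihood and likelihood ratio tests also called 0, with 472 and 508. The differences could be bounded for the genes described above. For *Mki67*, at 110.2 ± 28.3 CPM after HS (SD, n = 3), FT minus HS was 0.27 on the log2 scale with a 95% interval of -0.13 to 0.66. For *Spp1* it was 0.15 (-0.37 to 0.67), for *Fn1* 0.06 (-0.55 to 0.67), for *Tmem119* 0.08 (-0.37 to 0.54) and for *Pkm* -0.12 (-0.66 to 0.42). *Gpnmb* had 0.94 (0.33 to 1.56, limma adjusted p = 1), with 76.3 ± 20.3 CPM after HS (SD, n = 3). *Ifi27l2a* had 0.79 (0.27 to 1.32, limma adjusted p = 1). It was named for the largest FT 72 h rise of its list, which can raise its difference from HS. All these intervals are per gene and not corrected over genes, so one that leaves out 0 is not a call. *Arg1* was too variable to be bounded closely, at 0.07 (-1.19 to 1.33).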

How the data were processed

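Poly-A RNA of eGFP-high cells was amplified and sequenced, and the authors removed adapter reads with the FASTX-Toolkit, mapped the rest to mm10 with TopHat2 2.0.9, counted reads per gene with HTSeq 0.5.4p3 and kept genes with 10 counts in at least 2 replicates. The deposited signal is the count divided by library size and an edgeR 3.3.6 factor, and is called CPM here. Strand use and read multiplicity in counting are not given in the sources used here.

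Whole reads were recovered from these values (100% of 336200 values lay within 0.001 of a step from a whole number of reads). Replicates differed by more than sampling noise and each counted once. Log2(CPM + 0.5) was fitted with limma 3.58.1 (trend, all 20 libraries, 1 mean per group, R 4.3.3), with p-values adjusted by Benjamini-Hochberg over 16810 genes. Count tests with edgeR 4.0.16 (added for the recovered reads) and DESeq2 1.42.0, other scalings, other constants, a filter, only the libraries compared, the replicate block and each library left out were alternatives. Settings that concern low *Fth1*, and the likelihood ratio test against HS, were chosen after seeing the data. Of these fits only limma and the edgeR quasi-likelihood test were run on simulated data. RefSeq coordinates are of GRCm38.

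The 34 gene lists (795 of 815 genes in the table) and the comparison were chosen with earlier results of these data known, and some lists share genes. The genes named were taken from genes marked in each list, each list's largest DE rise and fall, and the 12 largest rises and falls with groups that did not overlap and a mean of at least 5 CPM. Genes named without a value complete a count of 5 or fewer and were named after their values were seen. Some genes of these lists are not reported here.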

Additional observations from a re-analysis of the deposited data

Results flagged for a closer look

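The genes below were picked out of the 152 genes named in the text. Their level at FT 72 h differed from FT at 1 week by the limma test of that difference (adjusted p under 0.05 and at least 2-fold). Of the 152 genes 44 were higher and 5 lower at 72 h, against 2.62% and 0.827% of all genes, and other genes that passed are not listed. Some of the 152 were picked for a large rise or fall from NI at FT 72 h. Their counts are therefore not a result about genes at large. Both comparisons with NI share the NI libraries, which do not enter this difference, and values are FT 72 h minus FT at 1 week on the log2 scale, with 3 libraries at each time.

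Genes of replication and its control were higher at 72 h, namely *Rrm2* (4.32), *Tk1* (3.12), *Mcm5* (2.97), *Cdc6* (2.73), *Mcm2* (1.71), *Pcna* (1.20), *Ccne1* (2.30), *E2f8* (2.5) and *E2f1* (1.43). The mitotic genes were *Ccnb1* (4.49), *Top2a* (4.37), *Pbk* (4.30), *Ccnb2* (3.92), *Mki67* (3.87), *Plk1* (3.78), *Aurka* (3.66), *Ccna2* (3.5), *Birc5* (3.46), *Cdc20* (3.29), *Aurkb* (2.71), *Foxm1* (2.58) and *Cdk1* (2.22), and the repair genes *Brca1* (2.18) and *Chek1* (1.96).

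Markers of monocytes, matrix genes and secreted proteins that were higher at 72 h were *Arg1* (3.17), *Ccr2* (2.17), *Ly6c2* (1.82), *Fn1* (1.29), *Thbs1* (1.92), *Tgfbi* (1.58), *Timp1* (2.16), *Lgals1* (2.08), *Vim* (1.69), *Anxa2* (1.45) and *Spp1* (1.15). Glycolysis genes were *Eno1* (1.39), *Pkm* (1.20), *Ldha* (1.14) and *Pgk1* (1.01). *Eno1* was low and overlapped between the times, at 9.86, 2.34 and 5.43 CPM at 72 h and 0.741, 2.55 and 2.05 CPM at 1 week. The others were the astrocyte genes *Gfap* (1.58) and *Aldh1l1* (1.47), the interferon-induced *Ifi27l2a* (1.34) and the receptor antagonist *Il1rn* (1.12), and the complement receptor *C5ar1* (1.07).

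Lower at 72 h than at 1 week among the genes named in the text were *C3* (-2.51), *Whrn* (-1.50), *Gprasp2* (-1.37), *Itgax* (-1.06) and *Slc1a3* (-1.06).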

How the results depend on the processing

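The counts of DE genes at FT 72 h against NI moved by over 1.5 times under some settings. The higher count was 2491 by adjusted p alone and 620 with every column scaled to the same total, against 1369. The lower count, against 688, was 433 with 1 in place of 0.5 added before the log, 1569 by adjusted p alone, 376 without both libraries with low *Fth1* and 2732 with every column scaled to the same total. Leaving out each library in turn gave 1241 to 1458 higher and 493 to 843 lower genes, the fewest without NI replicate 2 in both cases. Against FT at 1 week 483 to 661 genes differed when each library was left out, in place of 579, and the lower ones went from 139 to 75 without FT 72 h replicate 2. Against HS at 72 h the count was 0 to 1, the single gene appearing without HS 72 h replicate 2. An arm left with 2 libraries was assumed to vary like the other groups. Why the counts moved was not tested.

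Of the 152 genes named from the tests, 117 were DE and 84 of these were DE under every setting tried, and none reversed. Calls were lost for 14 genes and gained for 8 with every column scaled to the same total, for 9 and 8 after quantile normalization, and for 19 and 0 without both libraries with low *Fth1*. Leaving out 1 library ended 8 to 13 calls. Shallow libraries limit genes of a few reads, where a change of 2-fold could be missed.

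Replicate numbers are shared between the groups. The deviations of same-numbered NI and FT 72 h libraries from their group means correlated at 0.156, -0.476 and -0.308 over 9932 genes. With 3 libraries in a group such deviations constrain each other, so these values cannot settle whether the numbers pair the libraries. Not every library correlated best with its own number. The highest value was 0.477, between NI replicate 3 and FT 72 h replicate 2, which are the libraries with low *Fth1* in their groups. With the replicate block, fitted to the 2 groups alone, 1373 genes were higher and 725 lower, against 1383 and 740 without it. Between FT 72 h and FT at 1 week the block fit to the 2 groups alone gave 333 genes (292 higher and 41 lower). The 579 of the main fit used all 20 libraries. A fit to these 2 groups without the block was not run, so the part of the block in this drop was not tested. Against HS at 72 h the block gave 0 genes.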
